A study of Mus musculus with 6 samples.

Results

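The genes described here encode subunits of voltage-gated calcium channels, the proteins that let calcium into a pancreatic endocrine cell when its membrane depolarises. The 10 members were fixed by gene symbol in the GENCODE vM21 annotation, out of 54119 genes with a transcript in the deposited files: 5 pore-forming subunits (Cacna1a, Cacna1c, Cacna1d, Cacna1e and Cacna1h), 3 beta subunits (Cacnb1, Cacnb2 and Cacnb3) and 2 alpha2delta subunits (Cacna2d1 and Cacna2d2). The rule uses names and no measured value, but the members were chosen with earlier results of these data known. Each symbol matched 1 gene, and all 10 passed the filter on low counts, with at least 26 estimated reads and 1.64 CPM (estimated reads relative to library size, with the sizes scaled by edgeR's TMM method) in every library. Polyadenylated RNA was sequenced from male C57BL/6 mouse islets taken on postnatal day 24, from 3 mice with the genotype Dpy30 knockout and 3 mice with the genotype control, 1 mouse per library. Islets were picked by hand, so each library holds all islet cell types with whatever exocrine, vascular and connective tissue came with them. The labels name neither a Cre line nor the deleted part of Dpy30, and give the control genotype by that word alone. Dpy30 belongs to every complex of the family that adds methyl groups to lysine 4 of histone H3, a mark concentrated at CpG-rich promoters.

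A voltage-gated calcium channel is built around 1 pore-forming alpha1 subunit, which senses voltage and sets the current type. L-type pores (Cacna1c, Cacna1d) open at strong depolarisation and inactivate slowly, P/Q-type (Cacna1a) and R-type (Cacna1e) pores also need strong depolarisation, and T-type pores (Cacna1h) open near the resting voltage. High-voltage-activated pores are joined by a cytoplasmic beta subunit, which brings the pore to the membrane and shapes its gating, and by an extracellular alpha2delta subunit, which raises the number of channels at the surface. In mouse beta cells glucose metabolism closes ATP-sensitive potassium channels, the membrane depolarises, and calcium entering mainly through L-type channels triggers insulin exocytosis.

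The libraries held 17075991 to 25272669 estimated reads assigned to genes, fewest in knockout replicate 2. The targeted gene matched the labels, since transcripts that lack exon 4 of Dpy30 took 82.2, 81.0 and 80.5% of its estimated reads in knockout replicates 1 to 3, against 5.24, 0.438 and 3.78% in control replicates 1 to 3. Over all transcripts Dpy30 stood at 31.9, 53.2 and 30.7 CPM in knockout and 25.6, 30.2 and 31.8 CPM in control islets. Of the 16430 genes tested, 674 were called higher in knockout islets and 960 lower by the quasi-likelihood test of edgeR, at a Benjamini-Hochberg adjusted p below 0.05. With library totals alone in place of TMM scaling the calls were 1054 higher and 674 lower, and the median log2 fold change of all genes moved by 0.13.

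Levels per transcript length placed the subunits in a steep order. TPM (estimated transcript abundance, scaled by length and library total) can be set side by side between genes of 1 library, and in knockout islets it ran from Cacna2d1 at 32.2 ± 14.4 TPM through Cacna1d (23.9 ± 4.80 TPM), Cacnb3 (22.7 ± 6.35 TPM), Cacnb2 (16.4 ± 4.03 TPM), Cacna1a (10.8 ± 2.21 TPM), Cacna1c (8.90 ± 1.62 TPM) and Cacnb1 (2.96 ± 0.562 TPM) to Cacna1h (0.530 ± 0.163 TPM), Cacna2d2 (0.421 ± 0.145 TPM) and Cacna1e (0.186 ± 0.0893 TPM; SD, n = 3 for each). Between knockout libraries the ranges of all neighbours in this order overlapped, except that Cacna1c stood clear of Cacnb1 and Cacnb1 clear of Cacna1h. In control islets the order was the same except that Cacnb3 (28.4 ± 7.05 TPM) stood just above Cacna1d (24.4 ± 2.74 TPM), with overlapping ranges. It ran there from Cacna2d1 at 33.6 ± 7.66 TPM to Cacna1e at 0.280 ± 0.0932 TPM (SD, n = 3 for each). The ranges of Cacna2d1 and Cacnb3 and of Cacnb2 and Cacna1a also overlapped between control libraries, and those of the other neighbours did not. The place of Cacna1a rests largely on transcripts annotated as non-coding, since protein-coding ones held 8.70 to 26.7% of its TPM. Those of Cacna1d held 32.1 to 46.7% of its TPM. Counting protein-coding transcripts alone, Cacna1a stood at 2.46 ± 0.399 TPM in knockout and 2.16 ± 1.10 TPM in control islets, below Cacna1c at 6.46 ± 0.824 TPM in knockout and 5.84 ± 0.937 TPM in control islets. On that measure Cacna1d stood at 8.90 ± 0.352 TPM in knockout and 9.35 ± 0.936 TPM in control islets, below Cacnb2 in both groups.

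All 10 members had a negative log2 fold change in knockout islets, 4 passed the test as lower and none as higher. The 4 were Cacna2d2, Cacna1h, Cacnb1 and Cacnb3. Of all genes tested, 9.95% were called, 5.84% lower and 4.10% higher, and 49.5% had a negative log2 fold change. Since the members were chosen with earlier results known, the shares of all genes are a background and no test of the set. In 6 members every knockout library lay below every control library in CPM, namely the 4 called genes with Cacna1d and Cacna1e, against 17.2% of all genes. In TPM the groups of Cacna1d, Cacna1e and Cacnb3 overlapped. The median log2 fold change was -0.58 over the 10 members and 0.01 over all genes tested. At an unadjusted p below 0.05 there were 6 members, all lower. The share of all genes at that threshold was not counted, so this number has no background beside it. The largest changes were in Cacna2d2 and Cacna1h, which with Cacna1e had the lowest TPM of the 10. By the authors' deposited table, lower members numbered 5 at an adjusted p below 0.05, the same 4 and Cacna1a, against 7.77% of its genes. DESeq2 called the same number of members lower, 4 of 10, against 8.75% of all genes, and the fit with a replicate block also called 4, against 7.86%.

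**Figure D1:**
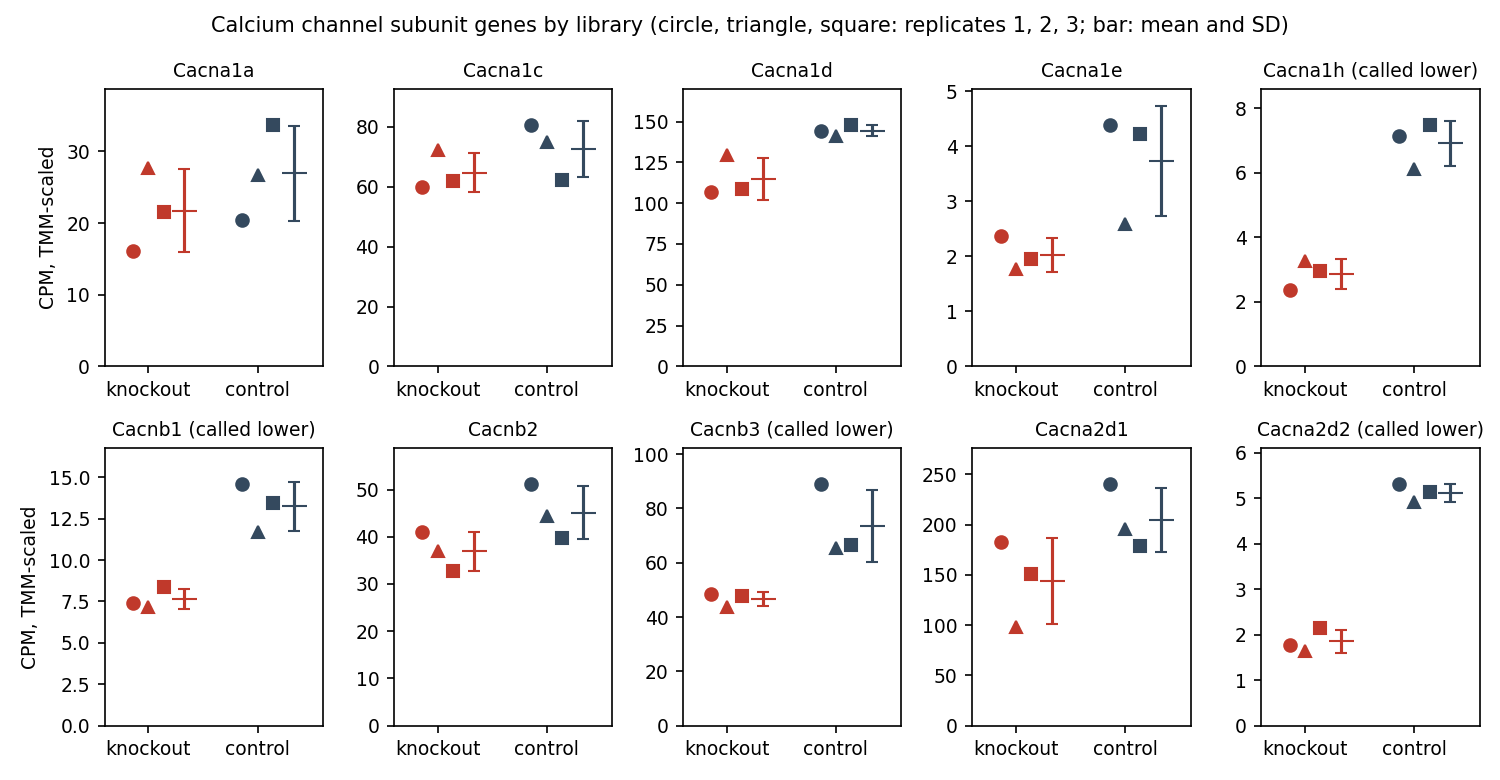
CPM on TMM-scaled library sizes of each of the 10 subunit genes, with 1 point per library, knockout in red and control in dark blue, and the mean with its SD beside the points. Knockout and control points do not overlap in Cacna1d, Cacna1e, Cacna1h, Cacnb1, Cacnb3 and Cacna2d2, and the last of these stands at 1.64 to 2.14 CPM in knockout and 4.91 to 5.30 CPM in control libraries.

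The calls differed in how far they rested on single libraries. Every fit that left out 1 of the 6 libraries called Cacna2d2 (adjusted p = 0.0315 to 0.0484, edgeR). For Cacna1h the adjusted p was 0.0531 when knockout replicate 1 was left out, 0.0617 when knockout replicate 3 was, and 0.0692 when control replicate 3 was (edgeR), so the call was lost in these 3 fits. Without knockout replicate 2, the shallowest library, 2 of 10 members were called lower, against 4.62% of all genes. Cacnb1 and Cacnb3 were called in 0 of the 6 fits, at log2 fold changes from -0.88 to -0.72 and from -0.74 to -0.50. For Cacnb1 the adjusted p was 0.0829, 0.0639 and 0.0818 without knockout replicates 1, 2 and 3, and 0.0950, 0.0653 and 0.105 without control replicates 1, 2 and 3 (edgeR). For Cacnb3 it was 0.0737, 0.0778 and 0.104 without knockout replicates 1, 2 and 3, and 0.0862, 0.0646 and 0.0685 without control replicates 1, 2 and 3 (edgeR). Using library totals in place of TMM scaling moved the median log2 fold change of all genes up by 0.13. In that fit Cacnb1 (-0.65, adjusted p = 0.0856, edgeR) and Cacnb3 (-0.52, adjusted p = 0.114, edgeR) lost their calls. All 10 members stayed negative, Cacna1c at -0.04.

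**Figure D2:**
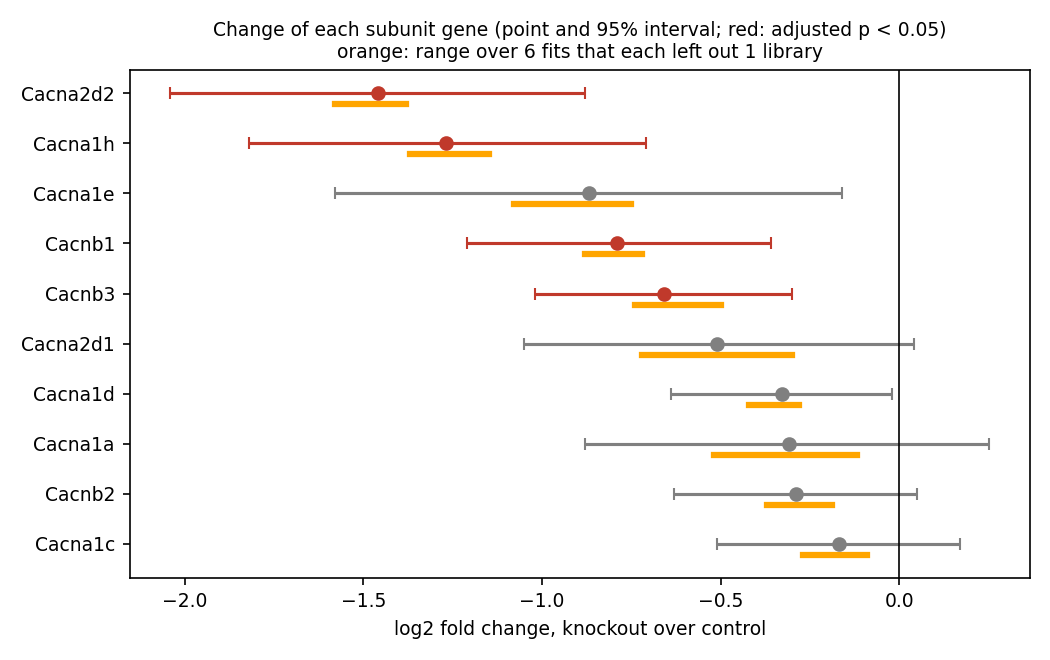
Log2 fold change of each subunit gene, knockout over control, with its 95% interval; red points passed the adjusted threshold, and the orange bar spans the 6 fits that each left out 1 library. Every point lies left of 0, from -1.46 for Cacna2d2 to -0.17 for Cacna1c, and the intervals of Cacna1a, Cacna1c, Cacnb2 and Cacna2d1 include 0.

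Markers of other cells moved beside these results. For the counts below, 4.10% of all genes tested were called higher and 5.84% lower. A single called gene in so short a list cannot be told from these shares. The summed level of 10 acinar genes was 2320 to 14652 CPM in knockout and 964 to 3461 CPM in control libraries; all 10 had positive log2 fold changes, 0 were called (edgeR), and the groups overlapped. Of 5 endothelial genes 3 were called higher, and their sum was 587 to 777 CPM in knockout and 417 to 526 CPM in control libraries. Of 7 smooth muscle and pericyte genes 0 were called, and their sum was 331 to 546 CPM in knockout and 241 to 333 CPM in control libraries. Of 6 genes shared by all endocrine cells 0 were called, with sums of 22219 to 29488 CPM in knockout and 21523 to 30667 CPM in control libraries, which overlapped. Beta cell genes summed to 71547 to 121810 CPM in knockout and 160363 to 264893 CPM in control libraries. Alpha cell genes summed to 23980 to 28895 CPM in knockout and 36451 to 65555 CPM in control libraries. The beta sum was mostly Ins1, Ins2 and Iapp, and the alpha sum mostly Gcg. None of these was called (adjusted p = 0.0779, 0.069, 0.259 and 0.0629 in that order, edgeR). Called lower were 3 of the 9 beta and 2 of the 6 alpha cell genes. Mafa (0.59) and Ttr (0.54) had positive log2 fold changes that did not pass, and the other genes of both lists had negative ones. Of 3 delta cell genes 2 were called lower, and of 5 mesenchymal and 4 immune genes 1 each was called higher. Of 6 ductal genes 5 were tested, and 1 was called higher and 1 lower. Of 7 Schwann cell and neuron genes 1 was called lower. None of these lists had a gene at 0 reads in every library. When the mean acinar level entered the fit as a further term, none of the members was called (edgeR; 2.34% of all genes were called lower), at log2 fold changes of -1.60 for Cacna2d2 (adjusted p = 0.0620), -1.16 for Cacna1h (0.114), -0.83 for Cacnb1 (0.139) and -0.73 for Cacnb3 (0.111). The part of the other cell types in the members' values was not tested beyond that fit. In islets sequenced whole, fewer cells of a type and less RNA per cell cannot be told apart.

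Among the pore-forming genes, Cacna1h was lower and the L-type genes differed little. Cacna1h, a T-type pore (chromosome 17, 25374285 to 25433783, minus strand, GRCm38), read 2.37, 3.28 and 2.97 CPM in knockout replicates 1 to 3, against 7.14, 6.11 and 7.47 CPM in control replicates 1 to 3. Every knockout library lay under every control library, by a wide gap. The log2 fold change was -1.27 (SE 0.24, 95% interval -1.82 to -0.71, adjusted p = 0.0167, edgeR quasi-likelihood test), a fold of 0.415. These levels rest on 52 to 79 estimated reads per knockout library and 142 to 182 per control library. In the authors' deposited table the log2 fold change of Cacna1h is -1.43 (adjusted p = 2.85e-06).

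Cacna1d, the L-type pore that opens at less depolarised voltages (chromosome 14, 30039939 to 30491455, minus strand), read 107, 129.7 and 108 CPM in knockout islets and 144, 141 and 148 CPM in control islets. The control libraries stood close together, and all 3 knockout libraries lay below them. The log2 fold change of -0.33 (SE 0.14, 95% interval -0.64 to -0.02) missed the adjusted threshold (adjusted p = 0.161, edgeR). Cacna1c, the L-type pore that carries much of the calcium current of mouse beta cells (chromosome 6, 118587240 to 119196418, minus strand), read 60.0, 72.2 and 61.8 CPM in knockout islets and 80.6, 74.9 and 62.2 CPM in control islets. Its groups overlapped, with control replicate 3 next to 2 of the knockout libraries. The log2 fold change was -0.17 (SE 0.15, adjusted p = 0.504, edgeR), and its 95% interval of -0.51 to 0.17 includes the value found for Cacna1d.

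Cacna1a, the P/Q-type pore, best known from nerve terminals (chromosome 8, 84388440 to 84640246, plus strand), read 16.1, 27.7 and 21.5 CPM in knockout islets and 20.5, 26.7 and 33.7 CPM in control islets. The groups overlapped over most of their range. Its log2 fold change was -0.31 (SE 0.25, adjusted p = 0.451, edgeR), and -0.67 (adjusted p = 0.0922) with an offset for the average transcript length in each library. That length was 2174, 2256 and 2005 bases in knockout islets and 1229, 1481 and 2455 bases in control islets. In the authors' deposited table its log2 fold change is -0.649 (adjusted p = 0.00727). Cacna1e, the R-type pore (chromosome 1, 154390731 to 154884501, minus strand), read 2.37, 1.76 and 1.96 CPM in knockout islets and 4.38, 2.58 and 4.23 CPM in control islets, from 28 to 105 estimated reads per library. The groups did not overlap, but control replicate 2 lay close to knockout replicate 1, and the log2 fold change of -0.87 (SE 0.31) missed the threshold (adjusted p = 0.113, edgeR).

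Cacnb3 and Cacnb1 fell among the beta subunit genes, and Cacnb2 did not pass the test. Cacnb3, whose protein restrains calcium oscillations in mouse beta cells (chromosome 15, 98630840 to 98644529, plus strand), read 48.6, 43.5 and 47.6 CPM in knockout islets and 88.8, 65.5 and 66.4 CPM in control islets. In CPM the knockout libraries stood close together below all controls, and control replicate 1 was the highest. In TPM the groups overlapped, at 26.4, 15.3 and 26.2 TPM in knockout islets and 36.1, 22.2 and 26.8 TPM in control islets. The log2 fold change was -0.66 (SE 0.15, adjusted p = 0.0349, edgeR), a fold of 0.633. Cacnb1, the beta subunit best known as the partner of the skeletal muscle L-type pore (chromosome 11, 98001508 to 98023034, minus strand), read 7.43, 7.18 and 8.35 CPM in knockout islets and 14.6, 11.7 and 13.5 CPM in control islets. Its groups were well apart, with a log2 fold change of -0.79 (SE 0.18, adjusted p = 0.0345, edgeR), a fold of 0.579. Cacnb2, a beta subunit of cardiac and endocrine cells (chromosome 2, 14603088 to 14987908, plus strand), read 41.1, 37.0 and 32.8 CPM in knockout islets and 51.1, 44.5 and 39.8 CPM in control islets. The lowest control library lay inside the knockout range, and the log2 fold change was -0.29 (SE 0.15, 95% interval -0.63 to 0.05, adjusted p = 0.252, edgeR). The authors' deposited table lists -0.580 for Cacnb3 (adjusted p = 0.0083), -0.957 for Cacnb1 (7.62e-05) and -0.222 for Cacnb2 (0.369).

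The start regions of the beta subunit genes are shown because trimethylated histone H3 at lysine 4 lies at promoters, mostly at CpG-rich ones, and 2 of these 3 genes were called. Whether their changes differ from each other was not tested, and their 95% intervals overlap. The windows come from RefSeq on GRCm38.p6 and run from 250 bases before to 50 bases after an annotated start, 5′ to 3′ on the gene's strand, with each CpG dinucleotide in capitals. The mark itself was not measured in these files.
Cacnb1, chr11:98022578-98022877, minus strand: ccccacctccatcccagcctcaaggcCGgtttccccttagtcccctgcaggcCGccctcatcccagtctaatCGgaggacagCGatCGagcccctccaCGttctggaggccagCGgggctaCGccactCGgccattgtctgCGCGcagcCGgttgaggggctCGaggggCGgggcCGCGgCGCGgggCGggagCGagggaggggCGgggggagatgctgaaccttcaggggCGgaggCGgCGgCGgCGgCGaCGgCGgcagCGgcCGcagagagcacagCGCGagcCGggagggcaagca
Cacnb3, upstream start, chr15:98632078-98632377, plus strand: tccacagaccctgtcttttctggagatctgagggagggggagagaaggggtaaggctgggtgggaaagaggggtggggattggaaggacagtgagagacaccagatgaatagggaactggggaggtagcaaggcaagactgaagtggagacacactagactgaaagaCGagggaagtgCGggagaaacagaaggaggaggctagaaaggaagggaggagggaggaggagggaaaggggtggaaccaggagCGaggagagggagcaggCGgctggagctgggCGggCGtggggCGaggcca
Cacnb3, downstream start, chr15:98634517-98634816, plus strand: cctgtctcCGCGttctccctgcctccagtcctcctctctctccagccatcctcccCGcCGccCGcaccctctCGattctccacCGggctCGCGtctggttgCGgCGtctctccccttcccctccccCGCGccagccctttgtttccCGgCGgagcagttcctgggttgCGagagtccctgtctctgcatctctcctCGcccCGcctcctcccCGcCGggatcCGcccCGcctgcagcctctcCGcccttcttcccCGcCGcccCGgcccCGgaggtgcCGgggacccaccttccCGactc
Cacnb2, chr2:14604056-14604355, plus strand: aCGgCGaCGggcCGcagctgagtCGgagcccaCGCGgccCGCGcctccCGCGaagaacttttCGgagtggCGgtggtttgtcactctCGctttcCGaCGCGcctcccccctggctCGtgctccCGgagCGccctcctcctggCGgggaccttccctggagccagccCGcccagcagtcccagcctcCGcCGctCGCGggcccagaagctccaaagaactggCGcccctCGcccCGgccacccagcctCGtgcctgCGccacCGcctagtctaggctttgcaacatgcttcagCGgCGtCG

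The Cacnb1 window held 34 CpG and the Cacnb2 window 35 in 300 bases. Of 32851 RefSeq windows of this length 7.73% held at least 34 CpG and 6.95% at least 35, and the median was 7. Transcripts that start within 100 bases of these windows' start sites held 56.6 to 100% of Cacnb1 TPM and 48.7 to 56.9% of Cacnb2 TPM across the 6 libraries. Cacnb1 and Cacnb2 each have a further RefSeq window that is not shown. That of Cacnb1 held 3 CpG, with 0 to 5.93% of Cacnb1 TPM starting there. That of Cacnb2 held 4 CpG, with 0 to 7.67% of Cacnb2 TPM. The upstream Cacnb3 window held 7 CpG, a count reached by 52.1% of all windows, and its transcripts took 34.4 to 45.6% of Cacnb3 TPM. The downstream window held 29 CpG, and transcripts starting there took 1.14 to 7.06%. The transcript of highest Cacnb3 level, Cacnb3-206, starts at 98635105, outside both windows.

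Cacna2d2 had the largest change of all members, while Cacna2d1, by far the main alpha2delta gene of these islets, did not pass the test. Cacna2d2, mutated in the ataxic ducky mouse (chromosome 9, 107399612 to 107529343, plus strand), read 1.77, 1.64 and 2.14 CPM in knockout islets and 5.30, 4.91 and 5.13 CPM in control islets. Libraries of each group stood close together, with a gap between the groups wider than either range. The log2 fold change was -1.46 (SE 0.25, 95% interval -2.04 to -0.88, adjusted p = 0.0117, edgeR), a fold of 0.364, from 26 to 57 estimated reads per knockout library and 114 to 127 per control library. Cacna2d1, the binding site of gabapentin and the alpha2delta subunit that supports beta cell calcium currents in mice (chromosome 5, 15934691 to 16374511, plus strand), read 182, 98.1 and 150.7 CPM in knockout islets and 240.0, 195 and 179 CPM in control islets. Knockout replicate 2 was the lowest, and knockout replicate 1 lay inside the control range. The log2 fold change was -0.51 (SE 0.24, adjusted p = 0.207, edgeR), and without knockout replicate 2 it was -0.30 (adjusted p = 0.322). The authors' deposited table lists -1.33 for Cacna2d2 (adjusted p = 7.77e-05) and -0.333 for Cacna2d1 (0.234).

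The start regions of this pair are given in the same way, since the pair holds the member with the largest change and the member of highest level.
Cacna2d2, chr9:107399630-107399929, plus strand: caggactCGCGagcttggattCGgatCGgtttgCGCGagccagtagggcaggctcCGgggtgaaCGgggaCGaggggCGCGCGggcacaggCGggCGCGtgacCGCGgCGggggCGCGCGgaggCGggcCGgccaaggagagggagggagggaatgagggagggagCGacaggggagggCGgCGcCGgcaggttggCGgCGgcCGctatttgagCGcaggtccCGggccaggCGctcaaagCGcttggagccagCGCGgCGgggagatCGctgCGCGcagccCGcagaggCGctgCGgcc
Cacna2d1, chr5:15934441-15934740, plus strand: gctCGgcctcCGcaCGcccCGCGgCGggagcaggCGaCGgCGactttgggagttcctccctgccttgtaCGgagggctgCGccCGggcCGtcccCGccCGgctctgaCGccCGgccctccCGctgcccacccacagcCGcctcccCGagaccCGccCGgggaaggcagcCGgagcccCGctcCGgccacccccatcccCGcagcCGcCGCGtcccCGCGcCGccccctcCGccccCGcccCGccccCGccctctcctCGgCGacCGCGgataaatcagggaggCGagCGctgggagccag

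Both windows were rich in CpG, with 43 in the Cacna2d2 window and 42 in the Cacna2d1 window, counts reached by 2.61 and 3.03% of all windows. Their GC contents were 75.7 and 80.0%, against a median of 52.7% over all windows. Transcripts starting at the Cacna2d2 window were estimated at 0 to 100% of Cacna2d2 TPM between libraries. Of these, Cacna2d2-202 held 100% in knockout replicate 2 and 16.1% in control replicate 2, with 0 reads in the other libraries. The transcript of highest Cacna2d2 level, Cacna2d2-208, starts at 107400069, outside the window. Transcripts starting at the Cacna2d1 window held 59.6 to 75.3% of Cacna2d1 TPM. RefSeq windows were matched for 8 of the 10 members, all but Cacna1h and Cacna1a. Windows of pore genes are not shown, and those matched belong to genes that were not called. The richest held 63 CpG in Cacna1d and 57 in Cacna1c, more than any window shown. Transcripts starting there took 0.0973 to 3.62% of Cacna1d TPM and 19.7 to 30.7% of Cacna1c TPM. The Cacna1e window held 11 CpG, with 0% of its TPM. A link between CpG count and change was not tested.

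The balance of subunits within a class was compared as shares of class TPM, which do not depend on how libraries are scaled. A class here holds only the members of its kind. It leaves out Cacna2d4, which averaged 1.56 TPM in knockout and 2.15 TPM in control islets, above Cacna2d2. It also leaves out Cacna1b, which averaged 2.15 TPM in knockout and 2.35 TPM in control islets, above Cacna1h. Cacna1g, another T-type pore, is left out as well. It averaged 0.999 ± 0.379 TPM in knockout and 0.429 ± 0.261 TPM in control islets (SD, n = 3 each), above Cacna1h in knockout and below it in control islets. In CPM, Cacna1g averaged 1.94 in knockout and 2.06 in control islets (log2 fold change -0.09, adjusted p = 0.88, edgeR). In 6 of 10 members the shares of knockout and control libraries did not overlap. These 6 include both Cacna2d1 and Cacna2d2, which are complements and amount to 1 observation. With 3 libraries a group, the smallest p of a two-sided exact permutation test is 0.1. Class shares exist for the members only, so this count has no share of all genes beside it. Cacna2d2 held 1.36% ± 0.308 of alpha2delta TPM in knockout and 2.69% ± 0.399 in control islets (SD, n = 3 each; exact permutation p = 0.1), with the rest in Cacna2d1. Cacna1h held 1.18% ± 0.241 of pore TPM in knockout and 2.55% ± 0.537 in control islets (exact permutation p = 0.1). Cacnb2 held 39.2% ± 3.06 of beta TPM in knockout and 32.4% ± 2.24 in control islets (exact permutation p = 0.1), Cacnb1 7.17% ± 0.944 in knockout and 10.04% ± 0.459 in control islets (exact permutation p = 0.1), and Cacnb3 53.7% ± 2.91 in knockout and 57.5% ± 2.68 in control islets (exact permutation p = 0.2). Shares of a class sum to 100%, so these shares follow from the changes of the genes relative to each other and are no separate evidence of them.

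Cacna1d held the largest share of pore TPM, 53.7% ± 2.04 in knockout and 51.4% ± 3.42 in control islets (exact permutation p = 0.3). The L-type genes Cacna1c and Cacna1d together held 73.8% ± 3.42 in knockout and 67.0% ± 2.42 in control islets (exact permutation p = 0.1). That difference of 6.76 percentage points was 1.36 when estimated reads were divided by each gene's mean length over the 6 libraries, and 0.97 over protein-coding transcripts alone, with overlapping groups in both. Under these other measures of level Cacna1h, Cacnb2, Cacna2d1 and Cacna2d2 kept groups that did not overlap, Cacnb3 gained them, and Cacna1c and Cacnb1 overlapped.

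**Figure D3:**
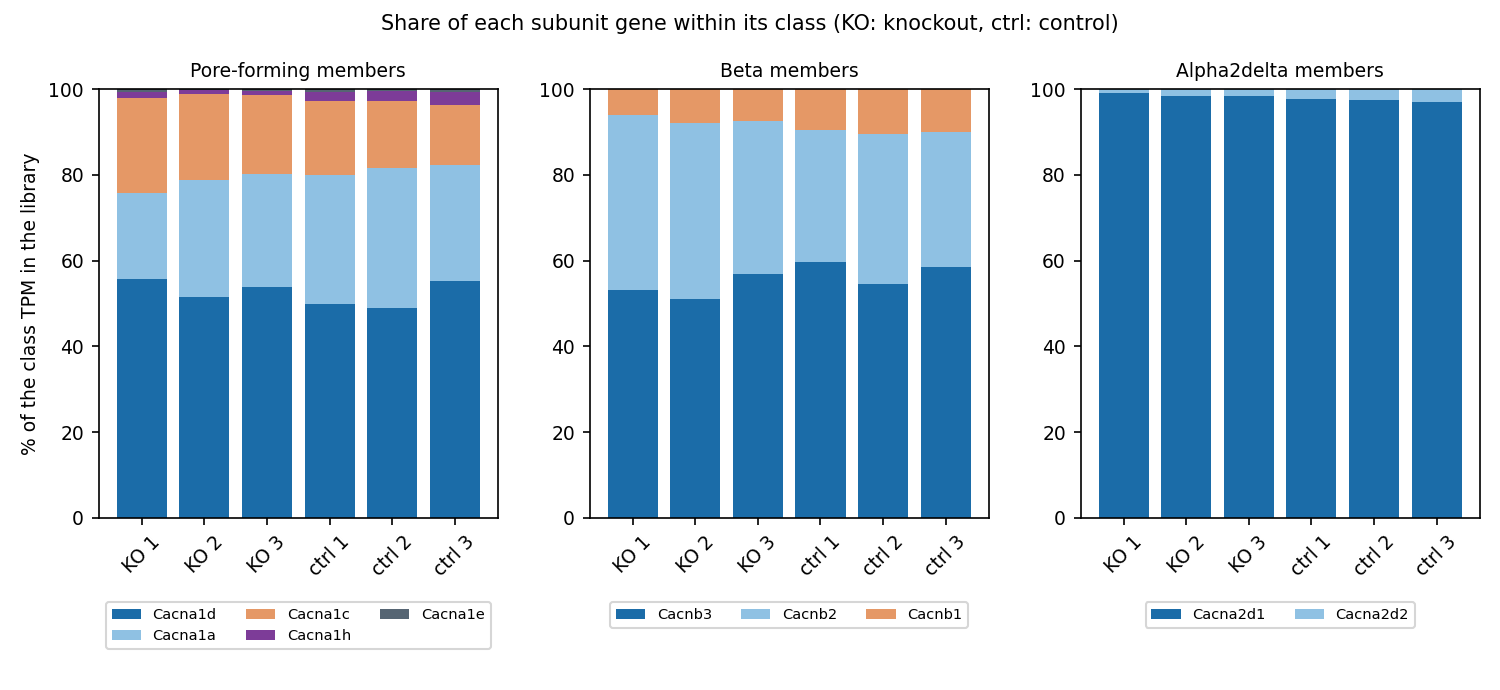
Share of each gene in the summed TPM of the members of its subunit class, in percent. Each library has 1 stacked bar, with knockout libraries (KO) left of control libraries (ctrl). Cacnb2 takes 35.6 to 41.0% of the beta class in knockout and 30.8 to 35.0% in control libraries, and Cacna2d2 takes 1.00 to 1.54% of the alpha2delta class in knockout and 2.32 to 3.11% in control libraries.

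No single transcript of the members passed the test. Of the 119 listed transcripts of the 10 genes, 42 had enough reads. Of these 0 were called (edgeR across 42104 transcripts, of which 0.416% were called). An unadjusted p below 0.05 was reached by 10, all of them lower. The share of all transcripts at that threshold was not counted, and these 10 are parts of genes already described as lower. The lowest adjusted p was 0.103, for Cacnb3-206, one of the major protein-coding Cacnb3 transcripts (log2 fold change -0.80, SE 0.16). It held 47.8% ± 7.74 of Cacnb3 TPM in knockout and 52.8% ± 2.85 in control islets, and Cacnb3-202, from the upstream start, held 39.9% ± 7.89 in knockout and 39.7% ± 2.35 in control islets (each an SD over n = 3). The share of the transcript of highest level differed between groups without overlap in 1 member, Cacna2d1. There Cacna2d1-202 held 60.6% ± 6.05 of gene TPM in knockout and 65.3% ± 0.449 in control islets (exact permutation p = 0.1). The groups nearly touched, at 64.94% in knockout replicate 3 and 64.98% in control replicate 1. Knockout replicate 2 stood lowest, at 53.7%, and the groups overlapped when shares of reads were used.

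Several members put much of their TPM in transcripts annotated as non-coding. Cacna1d-212, a retained-intron transcript over the 3′ part of Cacna1d (chromosome 14, 30039939 to 30082758), held 46.8% ± 8.07 of Cacna1d TPM in knockout and 50.7% ± 1.39 in control islets. Cacna1a-210, 549 bases long, held 45.05% ± 6.97 of Cacna1a TPM in knockout and 43.0% ± 7.48 in control islets, yet 8.89% of Cacna1a reads on average. Cacnb1-207, a non-coding transcript that starts upstream of the others, held 0.00, 10.7 and 6.31% of Cacnb1 TPM in knockout islets and 31.3, 33.6 and 13.3% in control islets, from 0 to 4 reads in knockout and 11 to 33 in control libraries. These groups did not overlap, and its own test gave a log2 fold change of -3.14 (SE 1.07, adjusted p = 0.307, edgeR). Cacna1h-201, the main coding transcript of Cacna1h, was listed at 0 reads in control replicate 3 and at 160 and 132 in the other controls, while the gene sum there was 182, so the split of Cacna1h between transcripts is an unstable estimate.

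Genes outside the 10 members were read from lists of the same pathway, also chosen with earlier results of these data known. Of 16 further calcium channel subunit genes 9 were tested, 3 were called lower and 0 higher, with a median log2 fold change of -0.50 (5.84% of all genes were called lower). Cacna1b, the N-type pore of nerve terminals, read 6.34, 9.77 and 10.4 CPM in knockout islets and 17.9, 17.4 and 17.3 CPM in control islets (log2 fold change -0.99, SE 0.22, adjusted p = 0.0275, edgeR). With the offset for transcript length it was -0.52 (adjusted p = 0.229). Cacna2d3, an alpha2delta gene, averaged 0.302 ± 0.0967 CPM in knockout and 1.13 ± 0.263 CPM in control islets (log2 fold change -1.86, adjusted p = 0.0237, edgeR), and Cacng4, of the gamma family, averaged 6.12 ± 1.40 CPM in knockout and 12.3 ± 2.70 CPM in control islets (a fold of 0.499, adjusted p = 0.0456, edgeR). Cacng4 was -0.58 (adjusted p = 0.139) with that offset, -0.86 (adjusted p = 0.0975) with library totals and -0.98 (adjusted p = 0.0502) with limma-voom. Cacna2d3 and Cacng4 lost their calls whichever library was left out, at adjusted p-values of 0.0519 to 0.0818 and 0.0515 to 0.141 (edgeR). Cacna1b lost its call without any 1 control library (adjusted p = 0.0664, 0.0788 and 0.0799 without replicates 1, 2 and 3) or without knockout replicate 3 (0.0562, edgeR). When the acinar level entered the fit, none of the 3 was called, at adjusted p-values of 0.106 for Cacna1b, 0.0922 for Cacna2d3 and 0.170 for Cacng4 (edgeR). Cacng7 (0.87), Cacna2d4 (-0.61) and Cacna1i (-0.50) did not pass.

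Among 10 regulators of the channels 1 was called lower and 0 higher, with a median log2 fold change of -0.19; 5.84% of all genes were called lower, so this count is close to the background. Rem2, a small GTPase of the RGK family that inhibits high-voltage-activated channels by binding their beta subunit, read 3.05, 2.14 and 1.43 CPM in knockout islets and 20.8, 6.20 and 9.77 CPM in control islets. Its log2 fold change was -2.47 (SE 0.49, adjusted p = 0.0189, edgeR), and its call was lost without knockout replicate 2 (adjusted p = 0.0688) or knockout replicate 3 (0.0757), and with the acinar level in the fit (0.125, edgeR). Every knockout library lay below every control library, and control replicate 1 was the highest. Rem1, of the same family (1.39, adjusted p = 0.138), and the adaptor genes Stac2 (-1.21, adjusted p = 0.0726) and Stac (1.17, adjusted p = 0.188, edgeR) did not pass.

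Upstream of the channels, 4 of 11 genes of electrical activity were called lower and 0 higher, where 5.84% of all genes were called lower. Slc2a2, 1 of the 4, is also among the called beta cell genes above. The median log2 fold change of the 11 genes was -0.83, lower than the -0.58 of the channel members. The count was 7 lower with the replicate block (7.86% of all genes), 6 with DESeq2 (8.75%), and 7 lower and 1 higher without knockout replicate 2 (4.62% lower). The glucose transporter gene Slc2a2 (log2 fold change -3.31), the ATP-sensitive potassium channel pore Kcnj11 (-2.46), the cation channel Trpm5 (-2.18) and the sodium channel Scn3a (-1.37) kept their calls whichever library was left out, and Trpm5 lost its call with the acinar level in the fit (adjusted p = 0.0543, edgeR). Abcc8, the sulfonylurea receptor that pairs with Kcnj11 (-0.83, adjusted p = 0.0672), Kcnk16 (-0.66, adjusted p = 0.0752) and Scn9a (0.40, adjusted p = 0.120, edgeR) did not pass.

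Downstream of the channels the called shares were close to those of all genes, of which 9.95% were called. Of 14 genes of the exocytosis machinery near the channel 1 was higher (4.10% of all genes were) and 0 lower, with a median log2 fold change of -0.09; DESeq2 also called 1 lower. That gene was Rims1, an active zone scaffold, at 1.44, 2.14 and 3.31 CPM in knockout islets and 0.501, 0.689 and 0.780 CPM in control islets (log2 fold change 1.80, SE 0.41, adjusted p = 0.0303, edgeR). Its call held only when knockout replicate 1 was left out, with adjusted p-values of 0.0637 to 0.102 in the other fits (edgeR), and it was lost with the length offset (adjusted p = 0.0560) and with the acinar level in the fit (0.171). Pclo (-0.53), Rimbp2 (-0.42) and Snap25 (0.42) did not pass. Of 14 genes of the response to calcium 1 was lower (5.84% of all genes were) and 0 higher, with a median of -0.04, and 2 were lower with DESeq2 and with the replicate block. Camk2b, a subunit of calcium/calmodulin-dependent kinase, read 138, 129.9 and 155 CPM in knockout islets and 246, 253 and 252 CPM in control islets (log2 fold change -0.83, SE 0.14, adjusted p = 0.00981, edgeR), and kept its call whichever library was left out. With library totals in place of TMM scaling its adjusted p was 0.0509. Nfatc2 (-0.74), Nfatc1 (0.49) and Camk2a (1.10) did not pass.

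**Figure D4:**
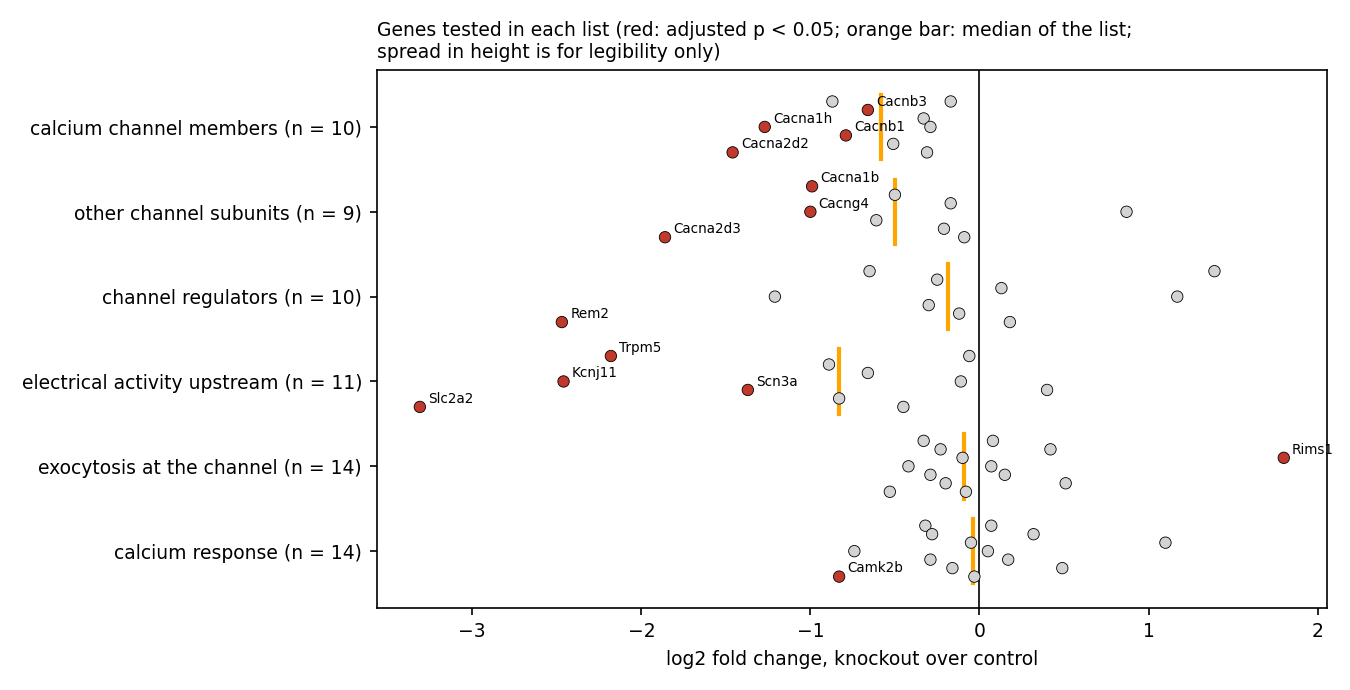
Log2 fold change, knockout over control, of each tested gene in the channel member list and 5 lists of related genes; red points passed the adjusted threshold and are named, and the orange bar is the median of the list. The medians of the members (-0.58), the other channel subunits (-0.50) and the electrical genes (-0.83) lie left of 0, and those of the regulators (-0.19), exocytosis (-0.09) and calcium response (-0.04) lie nearer to it.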

How the data were processed

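The authors deposited a Salmon transcript table per library with estimated counts, TPM and effective lengths, per the file headers; tools named in the submitters' processing notes are Trimmomatic, DESeq2 and Salmon, with GRCm38 and mm10 as builds. Versions and settings were not given in the sources used here. A deposited gene table of the authors gives log2 fold changes with standard errors and p-values. All genes called here that it holds had the same sign there. The settings of that fit, among them any shrinkage of fold changes, are not stated in the sources used here. Its fold changes may therefore be a different measure from the edgeR ones, which were not shrunken. The deposited table of scaled gene values was not used.

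Transcripts were matched to GENCODE vM21 by identifier without version (139852 of 140948, 99.6 to 99.7% of estimated reads per library). Estimated counts were summed per gene, rounded, filtered with filterByExpr (minimum count 10), scaled by TMM and tested by the quasi-likelihood test of edgeR 4.0.16 (R 4.3.3), with group as single term, over 16430 genes with Benjamini-Hochberg adjustment at 0.05, two-sided. Transcripts were fitted the same way. SE was the change over the square root of F, and 95% intervals used the fit's degrees of freedom. Shares used TPM as deposited. Each replicate is 1 mouse, per the labels. Alternatives were DESeq2 1.42.0, limma-voom (limma 3.58.1), other scalings, no filter, a length offset, an acinar covariate, a replicate block and each library left out.

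Knockout and control libraries of 1 replicate number deviated together from their group means (correlations of 0.427, 0.135 and 0.196), all over 0.1, the criterion for a paired fit, which was run as the replicate block beside the fit without pairs. Knockout replicate 2 correlated slightly more with control replicate 3 (0.14) than with control replicate 2. What a number marks is not in the labels.

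The members and lists were chosen with earlier results of these data known, and 2 genes of these lists are not reported here. Named from the lists were every called gene and up to 3 others of smallest p, and transcripts with at least 10% of gene TPM. Cacna1g, Gem and Rrad were chosen after their values were seen.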

Additional observations from a re-analysis of the deposited data

How the results depend on the processing

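The 10 members kept a negative log2 fold change under every setting run. Of them 4 were called lower with DESeq2, limma-voom, upper-quartile scaling, no filter, the length offset and the replicate block, 2 with library totals in place of TMM (chosen after seeing the data), 0 with the acinar covariate, and 1 to 2 without 1 library. The replicate block changed no call among the members; over all genes it gave 1138 higher and 1292 lower calls, against 674 and 960 without it. Higher calls over all genes were 1198 with DESeq2, 1054 with library totals, 183 with the acinar covariate (385 lower) and 243 to 550 without 1 library (464 to 780 lower). Over all transcripts there were 48 higher and 127 lower calls, and 0 with the replicate block or without any 1 library, and the cause was not tested. The number of members whose class shares did not overlap was 5 with reads over mean length or coding transcripts (this last chosen after seeing the data) and 6 to 8 without 1 library. For the leading transcript it was 0 with shares of reads and 1 to 3 without 1 library, against 1. Levels of Cacna2d2, Cacna1e and Cacna1h rest on 26 to 79 reads per knockout library, which limits their precision.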

Other observations

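Gem and Rrad, GTPases of the RGK family, varied widely between replicates. Gem read 189, 43.3 and 28.3 CPM in knockout replicates 1 to 3 and 347, 24.1 and 38.7 CPM in control replicates 1 to 3, so that replicate 1 was the highest library of both groups. Rrad, at 4.46, 1.39 and 1.05 CPM in knockout and 7.09, 0.345 and 0.821 CPM in control islets, was also highest in replicate 1 of both. Neither passed the test (adjusted p = 0.728 for Gem and 0.903 for Rrad, edgeR).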
